A study of Mus musculus with 48 samples.

Results

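Plasma cells were compared with germinal center (GC) B cells of the same spleens in 8 c-Rel transgenic mice. The comparison took 16 of the 48 libraries of the study, chosen by genotype and sorted population alone: 8 of plasma cells and 8 of GC B cells, paired by mouse (mice 5 to 8 and 13 to 16). The genotype is written c-RelTG in the labels, and the 8 control mice lack the transgene. Both genotypes carried 1 further allele, which is not reported here, and the age of the mice is not given in the sources used here. All mice had been immunized intraperitoneally with sheep red blood cells (SRBC), a particulate antigen that drives GC reactions. GC B cells were depleted of IgD+ and CD43+ cells and sorted as B220+, IgD-, low for CD38, high for CD95 and GL7+. Plasma cells were enriched for CD138 on magnetic beads and sorted as CD138+ cells with low B220. Every library held 1000 sorted cells and was read by bulk SCRB-seq, which counts unique molecular identifiers (UMIs), 1 per captured messenger RNA molecule, near its 3′ end.

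GC B cells divide rapidly, mutate their antibody genes and compete for help from T cells, under the repressors BCL6 and BACH2. Those that become plasma cells switch on BLIMP-1 (Prdm1), IRF4 and XBP1, leave the B cell program and enlarge the endoplasmic reticulum (ER) to secrete antibody. c-Rel, encoded by Rel, is a subunit of NF-kB, a family of transcription factors that act in B cell activation and GC maintenance.

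GC B cell libraries held 469916 to 695137 UMIs and plasma cell libraries 526471 to 794273. Immunoglobulin transcripts took 1.31 ± 0.374% of the UMIs of GC B cells and 49.7 ± 1.73% of those of plasma cells (SD, n = 8 mice), so that the UMIs left for all other genes numbered 553021 ± 74271 and 325717 ± 55569. For this reason library sizes and TMM factors, which align the bulk of genes between libraries, came from the genes outside the immunoglobulin loci, and immunoglobulin genes were then tested on the same scale. Levels below are in CPM (UMI counts scaled to the corrected library size), as means ± SD over 8 mice. The level of a gene is thus relative to the other genes outside immunoglobulin. Fewer cells of a type and less RNA per cell cannot be told apart in such pooled cells.

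Both populations carried the transcripts of their sort. All 7 plasma cell markers (Sdc1, Prdm1, Xbp1, Irf4, Tnfrsf17, Mzb1 and Jchain) were higher in plasma cells, and the 6 tested of 7 GC markers (Bcl6, Fas, S1pr2, Gcsam, Mybl1 and Rgs13) were lower. Sdc1, Fas and Ptprc encode CD138, CD95 and the protein of which B220 is a form, so their differences check the sort and are no finding. Sdc1 stood at 6.69 ± 6.53 CPM in GC B cells and 837 ± 89.6 CPM in plasma cells, Fas at 73.2 ± 10.6 CPM in GC B cells and 15.6 ± 7.29 CPM in plasma cells. Rel was counted at 16.6 to 41.3 CPM (median 30.8) in GC B cells and at 0 to 21.9 CPM (median 6.72) in plasma cells of the transgenic mice. It was lower in the plasma cells of 8 of 8 mice, with 160 against 18 UMIs, although the groups overlapped (two-sided exact sign-flip permutation p = 0.007812, the smallest that 8 pairs allow). Rel (ENSMUSG00000020275) lies on chromosome 11 from 23736847 to 23770970 in GRCm38. Scaled to UMIs outside immunoglobulin genes alone, Rel was at 36.2 ± 9.35 CPM in transgenic and 17.1 ± 6.47 CPM in control GC B cells (exact permutation adjusted p = 0.001554). On that scale transgenic plasma cells held 7.16 ± 5.83 CPM of Rel and control plasma cells 0.543 ± 1.53, the latter from 1 UMI over 8 libraries (exact permutation adjusted p = 0.002642 over 2 populations). Whether tags of the transgene are counted under Rel is not given in the sources used here.

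Transcripts of other cells were present at low levels and differed between the populations. T cell markers were found for 7 of 11 genes in GC B cells and 11 of 11 in plasma cells. Their summed level was 0 to 2.65 on the log2(CPM + 1) scale in GC B cells, here per UMIs outside immunoglobulin genes without TMM factors, and 5.19 to 6.88 in plasma cells. Cd3e had 1 UMI against 29, Cd3g 0 against 21 and Cd4 1 against 24 over 8 libraries each. Natural killer markers reached 0 to 2.34 against 2.84 to 4.77, with Ncr1 at 0 in both. Markers of monocytes, macrophages and neutrophils reached 2.85 to 4.41 against 4.56 to 7.80, with Ly6g at 0 in both and the 42 S100a9 UMIs of plasma cells all in mouse 15. Erythroid genes, mostly globins, went the other way, at 5.22 to 10.5 in GC B cells and 2.84 to 5.31 in plasma cells. Dendritic cell markers, chiefly Flt3 with 299 against 29 UMIs, were at 5.06 to 6.56 and 2.79 to 4.77. Each of these sums differed in the same direction in all 8 mice (exact sign-flip permutation adjusted p = 0.009487 over 17 library measures). Platelet markers were higher in plasma cells of 7 of 8 mice (0.838 ± 0.955 against 2.79 ± 0.652, exact permutation adjusted p = 0.01771). In plasma cells that sum was Itga2b alone, with 17 UMIs against 2, and Pf4, Ppbp and Treml1 each had 1 UMI in GC B cells and 0 in plasma cells. Naive B cell markers did not pass (7.40 ± 0.591 against 6.72 ± 0.474, exact permutation adjusted p = 0.06641). Their part in the results below was not tested.

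Heavy chain transcripts of plasma cells were more often of switched isotypes. The share of Ighm among the UMIs of all heavy chain constant genes ran from 24.5 to 37.3% in GC B cells and from 8.40 to 19.4% in plasma cells, with no overlap. Switched isotypes (IgG, IgA and IgE) made up 68.7 ± 4.53% of heavy chain UMIs in GC B cells and 85.9 ± 4.25% in plasma cells, a difference of 17.1 ± 5.12 percentage points that was positive in 8 of 8 mice (exact sign-flip permutation p = 0.007812, adjusted p = 0.02344 over 9 isotype measures). Ighg3 was lower, at 5.07 ± 1.10% against 2.31 ± 1.07% (lower in 8 of 8 mice, exact permutation adjusted p = 0.02344). Igha went from 20.4 ± 1.96% to 28.0 ± 8.60% (higher in 6 of 8 mice) and did not pass the adjustment (exact permutation p = 0.04688, adjusted p = 0.08438). Ighg1 (11.6 and 15.7%), Ighg2b (17.7 and 20.9%), Ighg2c (13.7 and 18.6%) and Ighe (0.326 and 0.289%) did not pass either (exact permutation adjusted p between 0.1172 and 0.7344). Reads of the similar Ighg2b and Ighg2c may have been split uncertainly. Plasma cell shares ranged widely between mice: Igha ran from 18.5 to 44.7% and Ighg1 from 4.17 to 23.0%. Among light chains, Iglc2 made up 15.1 ± 2.18% of Igkc and Iglc2 UMIs in GC B cells and 7.98 ± 3.24% in plasma cells (lower in 7 of 8 mice, exact permutation adjusted p = 0.03516). Jchain, the joining chain of IgM and IgA multimers, took 0.184 ± 0.0558% and 7.80 ± 1.52% of the UMIs outside immunoglobulin genes (higher in 8 of 8 mice).

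**Figure D1:**
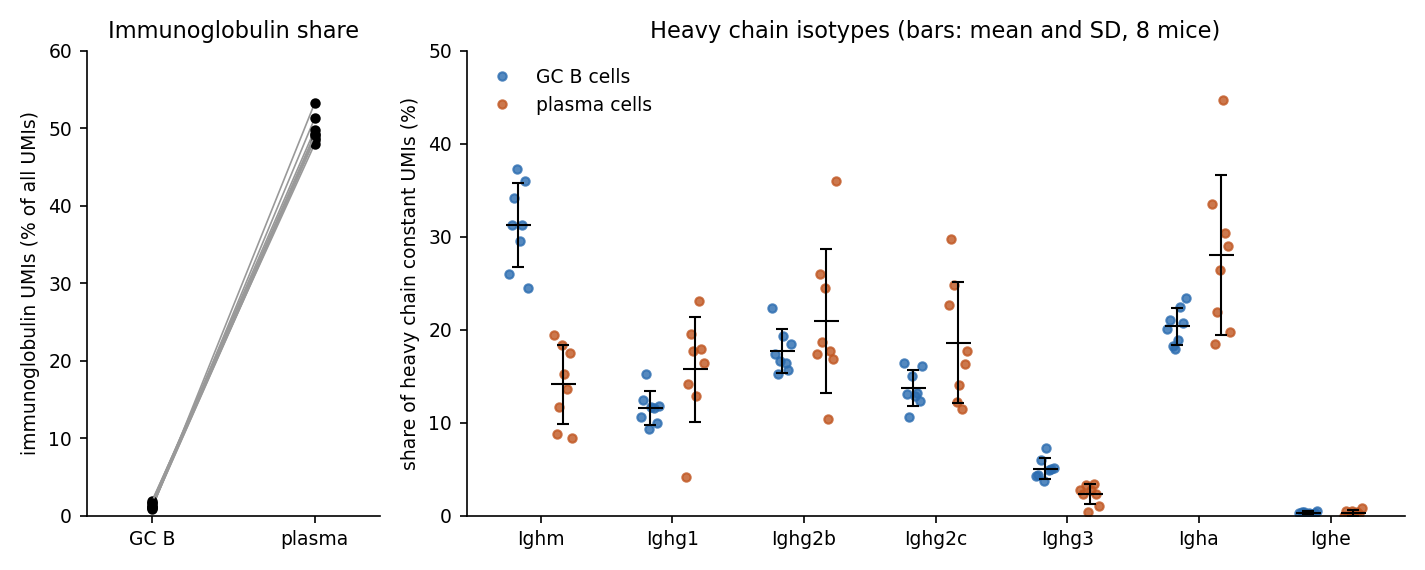
Left, immunoglobulin UMIs as a percentage of all UMIs, with a line joining the GC B cell and plasma cell libraries of each of 8 mice. Right, each isotype as a percentage of heavy chain constant UMIs, with points for mice and black bars for mean and SD; Ighm and Ighg3 are lower in every plasma cell library than in the GC B cell library of the same mouse, and the plasma cell points of Igha, Ighg1, Ighg2b and Ighg2c are widely spread.

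Plasma cells and GC B cells differed in most of the genes that could be tested. Of 6182 genes, 4457 passed the test (72.1%; edgeR with mouse as a block, adjusted p under 0.05): 2263 were higher in plasma cells (36.6%) and 2194 lower (35.5%). Changes over 2-fold numbered 1300 higher (21.0%) and 1012 lower (16.4%), and changes over 4-fold 640 and 349. The 8 values of plasma cells lay wholly outside those of GC B cells for 2605 genes (42.1%), above them for 1397 (22.6%) and below them for 1208 (19.5%). The median log2 fold change of all tested genes was -0.0034, and the counts of the gene lists below are to be read against these shares. The balance of higher and lower calls rests on the scaling: with totals outside immunoglobulin genes and no TMM factors 1575 genes were higher and 3268 lower, and with totals of all UMIs 763 and 4903, as the median then moved to -0.42 and -1.38. The sign of changes of less than about those sizes thus depends on the scaling. Larger changes are relative to the other genes as well, and none of these scalings gives a sign per cell.

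**Figure D2:**
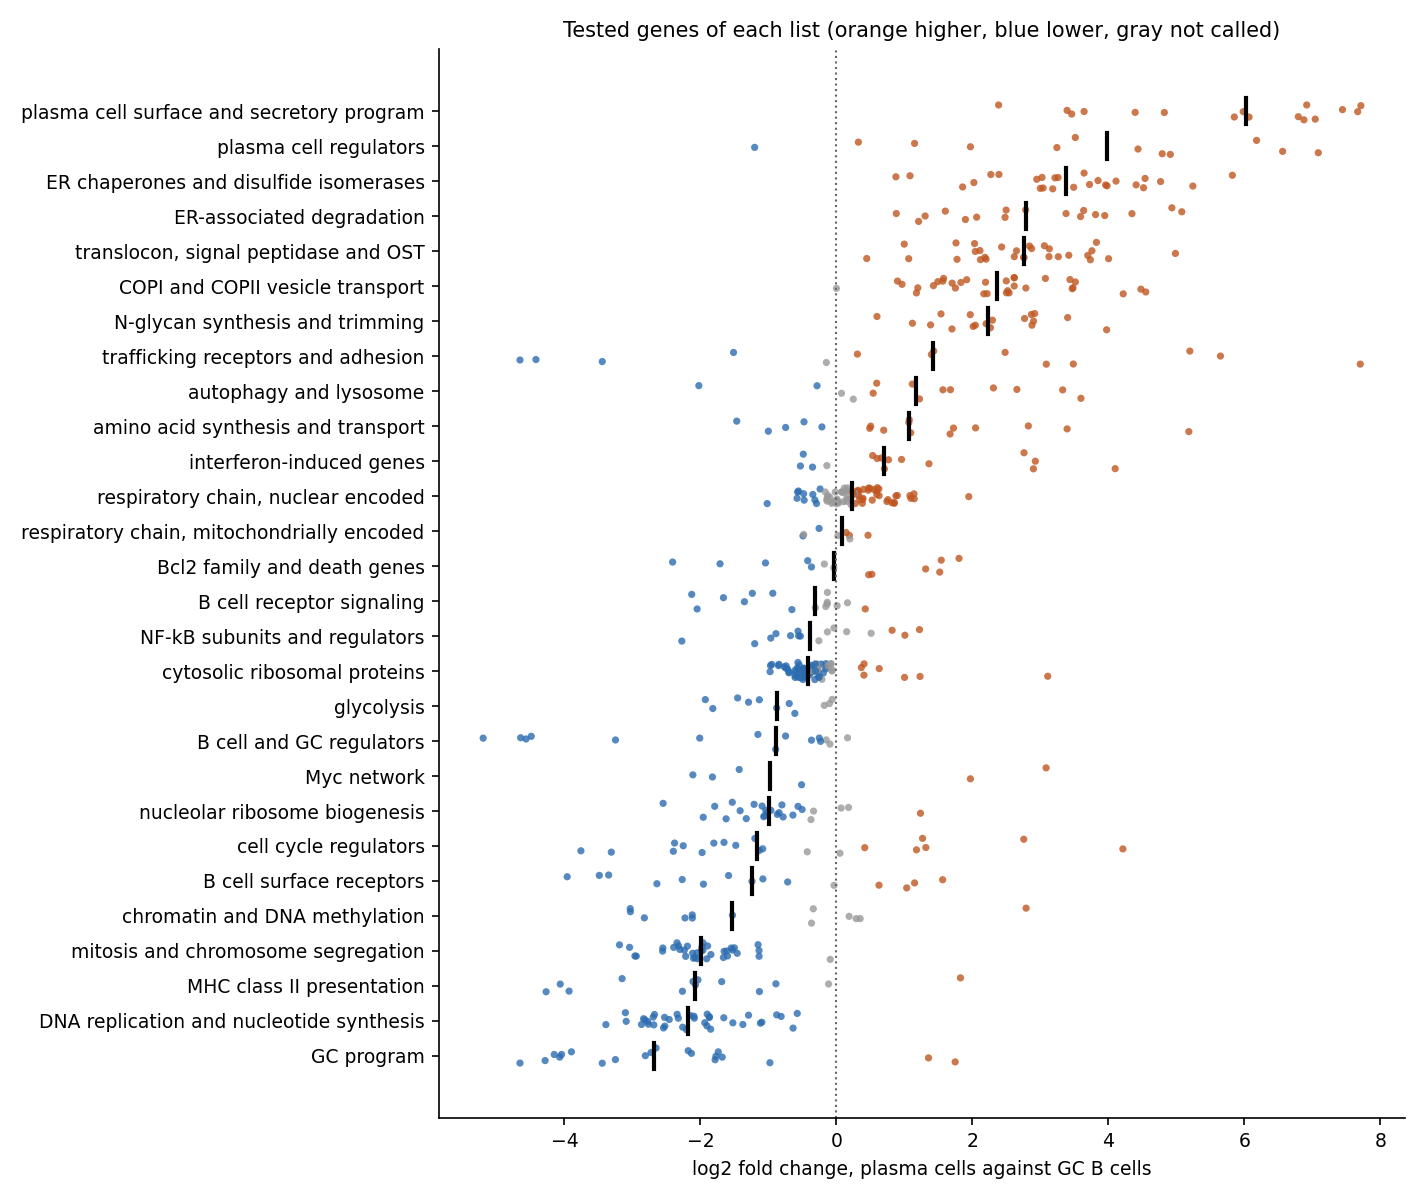
Log2 fold change, plasma cells against GC B cells, of every tested gene of 28 gene lists, ordered by list median (black bars); orange points are higher, blue lower and gray not called (edgeR, 8 mice). Lists of the secretory pathway lie wholly to the right of the dotted line, the median of all tested genes (-0.0034), while DNA replication lies wholly to the left. OST stands for oligosaccharyltransferase.

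The regulators that define the plasma cell state were high in plasma cells by factors of up to more than 100. Of 12 plasma cell regulators, 11 were higher (median log2 fold change of the list 3.97) and 1 was lower. Prdm1, the gene of the repressor BLIMP-1, ran from 0 to 9.17 CPM (median 3.66) in GC B cells and from 92.1 to 179.8 CPM (median 111) in plasma cells (log2 fold change 4.79, SE 0.24, edgeR adjusted p = 8.13e-27). Xbp1, whose protein drives the secretory apparatus, ran from 195 to 373 CPM (median 259.7) in GC B cells and from 6393 to 9345 CPM (median 8350.1) in plasma cells (log2 fold change 4.91, SE 0.12, edgeR adjusted p = 1.7e-18). Irf4, a dose-dependent switch between the 2 fates, ran from 18.6 to 38.4 CPM (median 25.3) in GC B cells and from 375 to 724 CPM (median 593) in plasma cells (log2 fold change 4.44, SE 0.11, edgeR adjusted p = 2.08e-42). In none of these 3 genes did a plasma cell library come near the GC range. Bhlha15 (MIST1), which shapes secretory cells, was at 4.84 ± 1.67 against 467 ± 75.8 CPM (log2 fold change 6.56, SE 0.16). Creb3l2, a transcription factor cut from the ER and Golgi membrane, was at 1.96 ± 1.43 against 303 ± 24 CPM (log2 fold change 7.09, SE 0.20). Ern1, the sensor IRE1 that splices Xbp1 messenger RNA, was at 0.962 ± 1.62 against 90.9 ± 26.3 CPM (log2 fold change 6.18, SE 0.34), Atf6 at 20.1 ± 11 against 191 ± 31.2 CPM (log2 fold change 3.24, SE 0.17) and Ell2, an elongation factor for secretory immunoglobulin messages, at 20.1 ± 2.86 against 234 ± 28.7 CPM (log2 fold change 3.51, SE 0.14). Arid3a and Atf4 were higher by 1.97 and 1.15 on the log2 scale. Zbtb20 was higher by 0.32 with overlapping groups (edgeR adjusted p = 0.0267), and it overlaps BC002163 on the same strand. Zbtb20 passed no longer without mouse 5, 15 or 16 (without mouse 16 its log2 fold change was 0.14, edgeR adjusted p = 0.334). With totals of all UMIs Zbtb20 and Atf4 stood at -1.06 and -0.24. The regulator that went the other way was Ikzf3 (Aiolos), at 247 ± 31.4 CPM in GC B cells and 107 ± 25.1 CPM in plasma cells (log2 fold change -1.20, SE 0.11, edgeR adjusted p = 1.42e-14).

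Regulators of the B cell and GC state were lower by very different amounts. Of 18 in the table, 15 were tested: 12 were lower, none was higher, and 3 did not pass (list median -0.89). Spib, an Ets factor of B cells, ran from 619 to 921 CPM (median 745) in GC B cells and from 9.42 to 38.5 CPM (median 17.5) in plasma cells (log2 fold change -5.19, SE 0.14, edgeR adjusted p = 8.11e-42). Bach2, a repressor of Prdm1, ran from 116 to 182 CPM (median 158) in GC B cells and from 0 to 12.8 CPM (median 7.52) in plasma cells (log2 fold change -4.64, SE 0.25, edgeR adjusted p = 8.24e-26). Bcl6, the master repressor of the GC, ran from 101 to 152 CPM (median 114) in GC B cells and from 0 to 10.7 CPM (median 5.91) in plasma cells (log2 fold change -4.49, SE 0.26, edgeR adjusted p = 1.84e-23). Id3, an inhibitor of E proteins, was at 342 ± 35 against 14 ± 6.9 CPM (log2 fold change -4.56, SE 0.17) and Irf8 at 834 ± 66 against 86.5 ± 18.3 CPM (log2 fold change -3.25, SE 0.10). The groups did not overlap in any of these 5 genes. Pax5, the guardian of B cell identity, had too few UMIs for the edgeR fit, with 156 in GC B cells and 5 in plasma cells, or 30.9 ± 11.5 against 1.97 ± 2.33 CPM (lower in 8 of 8 mice, two-sided exact sign-flip permutation p = 0.007812, a test chosen after its filtering was seen). Ets1, Spi1, Pou2f2 and Ikzf1 were lower by smaller steps, with log2 fold changes of -2.01, -1.15, -0.89 and -0.75. Foxo1, Tcf3 and Pou2af1 passed the test at -0.37, -0.25 and -0.23, with overlapping groups. Foxo1 passed no longer without mouse 8 (log2 fold change -0.27, edgeR adjusted p = 0.0857) or mouse 14, nor Tcf3 without mouse 15. Ebf1 (112 ± 19.2 against 125 ± 25 CPM; log2 fold change 0.16, edgeR adjusted p = 0.233), Mef2c (197 ± 16.9 against 185 ± 21 CPM) and Foxp1 (70.7 ± 30.4 against 62.8 ± 20.6 CPM) did not pass. Plasma cells held transcripts of Ebf1, Mef2c, Pou2af1 and Foxo1 at levels whose ranges overlapped those of GC B cells.

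**Figure D3:**
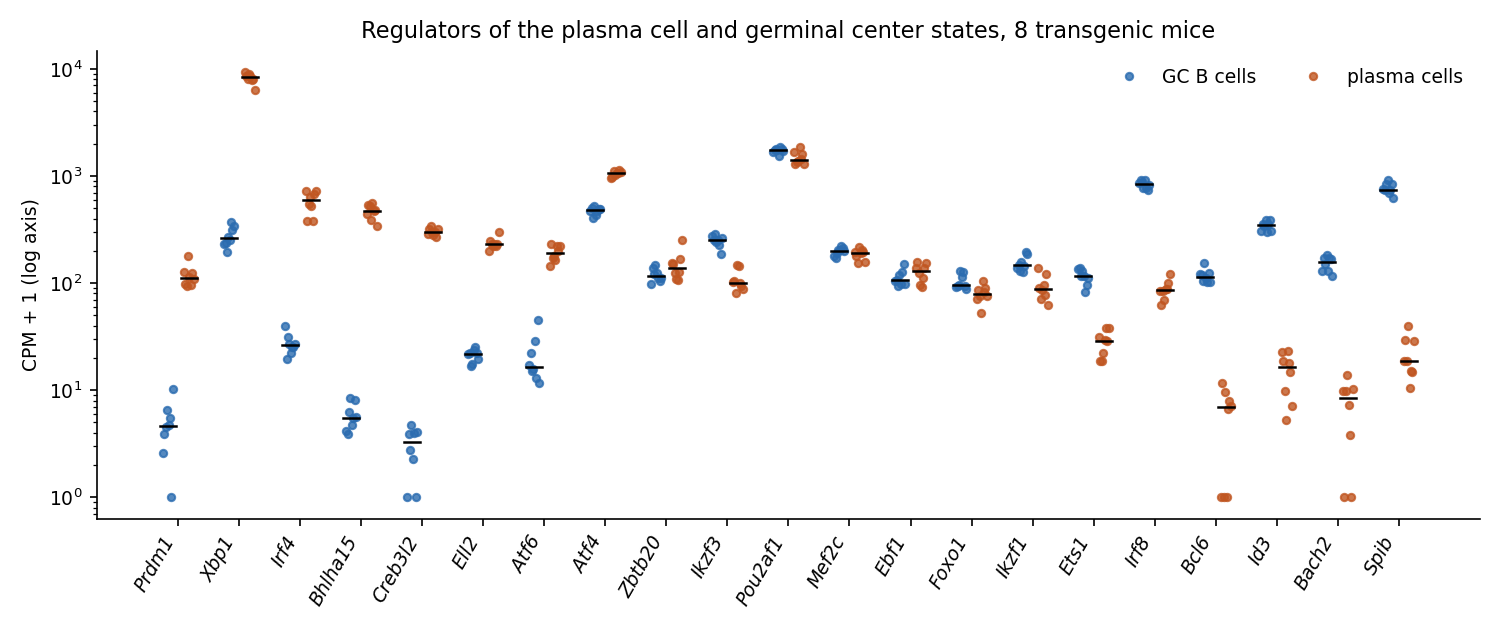
CPM + 1 on a log axis of 21 regulators in 8 GC B cell libraries (blue) and 8 plasma cell libraries (orange), with black bars at the medians. The genes from Prdm1 to Atf4 are higher in every plasma cell library, Irf8 to Spib are lower in every one, and Ebf1, Mef2c, Foxo1 and Pou2af1 overlap.

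The secretory pathway was higher in plasma cells at every stage that was measured. All 26 ER chaperones and disulfide isomerases were called higher (list median 3.37), as were all 17 genes of ER-associated degradation (2.78), the 29 tested genes of the translocon, signal peptidase and oligosaccharyltransferase (2.75) and all 18 genes of N-glycan synthesis and trimming (2.23). Of 32 tested genes of COPI and COPII vesicles, 31 were higher (2.36), and Sec24b did not pass. Hsp90b1, the ER form of HSP90 (GRP94), ran from 100.1 to 145 CPM (median 107) in GC B cells and from 4058 to 4695 CPM (median 4131) in plasma cells (log2 fold change 5.24, SE 0.084, edgeR adjusted p = 7.5e-53). Hspa5, the chaperone BiP that holds free heavy chains, ran from 430.2 to 578 CPM (median 487) in GC B cells and from 4968 to 7947 CPM (median 6796) in plasma cells (log2 fold change 3.72, SE 0.083, edgeR adjusted p = 3.14e-44). Pdia4, a disulfide isomerase, ran from 10.6 to 25.1 CPM (median 15.3) in GC B cells and from 531 to 1122 CPM (median 1032) in plasma cells, the lowest plasma cell value still far above the highest GC value (log2 fold change 5.82, SE 0.12, edgeR adjusted p = 7.01e-48). Among the other chaperone genes Dnajb9 was at 33.2 ± 10 against 902 ± 154 CPM (log2 fold change 4.77, SE 0.10), Creld2 at 232 ± 84.3 against 5266 ± 458 CPM (log2 fold change 4.54, SE 0.21), Dnajc3 at 95.5 ± 14.3 against 2192 ± 121 CPM (log2 fold change 4.52, SE 0.083) and Calr at 458 ± 44.5 against 3776 ± 358 CPM (log2 fold change 3.04, SE 0.074). Derl3, of the channel that returns misfolded proteins to the cytosol, was at 92.1 ± 21.8 CPM in GC B cells and 3129 ± 139.6 CPM in plasma cells (log2 fold change 5.08, SE 0.092, edgeR adjusted p = 6.24e-46). Edem2 and Edem1, which trim mannose from misfolded glycoproteins, were higher by 4.93 and 4.35 on the log2 scale, and Sel1l, the partner of the ubiquitin ligase HRD1, by 3.95. Ssr4, a subunit beside the translocon, was at 78.4 ± 17.7 CPM in GC B cells and 2499.5 ± 112 CPM in plasma cells (log2 fold change 4.99, SE 0.091), and Sec11c, the catalytic signal peptidase subunit, at 406 ± 47.6 CPM in GC B cells and 5738 ± 255 CPM in plasma cells (log2 fold change 3.82, SE 0.077). Srprb of the signal recognition particle receptor and Krtcap2 of the oligosaccharyltransferase were higher by 4.002 and 3.76. In vesicle transport the largest log2 fold changes were those of Sec24d (4.55), a COPII cargo adaptor, Arfgap3 (4.48), and the cargo receptor pair Lman1 (4.22) and Mcfd2 (3.51). In N-glycan synthesis they were those of Alg2 (3.97), Man1a (3.40), Alg5 (2.92) and Slc35b1 (2.90).

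The promoters of several of these genes are shown because they hold the ER stress response element, the textbook binding site of ATF6 and XBP1 with NF-Y. It was searched on both strands as CCAAT, 9 bases of any kind and CCACG in the 250 bases before RefSeq start sites (GRCm38.p6). Those of 1 chromosome were left out, and a gene counted if any of its windows matched. The element was found in 7 of the 20 ER chaperone genes with a window (35.0%) and in 2 of the 13 ER-associated degradation genes (15.4%). This compares with 0.238% of all tested genes with a window and 0.13% of all 27025 genes with a window. The other secretory lists, also higher in plasma cells, held no match. Those were the translocon, signal peptidase and oligosaccharyltransferase (22 genes with a window), COPI and COPII vesicles (28) and N-glycan synthesis (15). The windows of Hsp90b1 (chr10:86705445-86705694, minus strand), Derl3 (chr10:75893148-75893397, plus strand) and Hspa5 (chr2:34771840-34772089, plus strand) read 5′ to 3′ on the gene's strand, with the CCAAT and CCACG parts, or their reverse complements, in capitals:
Hsp90b1: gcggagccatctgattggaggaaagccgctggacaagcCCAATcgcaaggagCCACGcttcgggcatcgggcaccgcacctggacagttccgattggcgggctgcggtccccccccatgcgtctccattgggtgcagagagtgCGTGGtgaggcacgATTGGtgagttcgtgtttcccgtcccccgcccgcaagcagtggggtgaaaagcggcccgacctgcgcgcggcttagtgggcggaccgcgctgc
Derl3: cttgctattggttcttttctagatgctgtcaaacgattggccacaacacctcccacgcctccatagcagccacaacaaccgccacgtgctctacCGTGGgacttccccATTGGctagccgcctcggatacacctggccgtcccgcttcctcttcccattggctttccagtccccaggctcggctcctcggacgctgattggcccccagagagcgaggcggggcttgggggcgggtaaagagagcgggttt
Hspa5: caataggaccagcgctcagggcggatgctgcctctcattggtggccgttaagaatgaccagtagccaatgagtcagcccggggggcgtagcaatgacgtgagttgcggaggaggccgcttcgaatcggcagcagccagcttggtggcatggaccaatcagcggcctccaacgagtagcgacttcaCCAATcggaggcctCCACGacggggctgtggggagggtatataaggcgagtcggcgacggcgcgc
The Hsp90b1 window held 2 such elements and those of Derl3 and Hspa5 1 each. The other chaperone genes with a match were Calr, Canx, Pdia6, Dnajc3 and Creld2, and their log2 fold changes ran from 1.08 for Canx to 4.54 for Creld2. Syvn1 was the other degradation gene with a match (1.60). A match describes the letters of the window and is no measure of binding. The sequences are credited to RefSeq.

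Surface and secreted proteins of plasma cells showed large differences as well. All 16 tested of 17 genes were higher (list median 6.02), a count that includes Sdc1, a gene of the sort. Tnfrsf17, the survival receptor BCMA, ran from 0 to 5.26 CPM (median 2.01) in GC B cells and from 276 to 756 CPM (median 441) in plasma cells (log2 fold change 7.71, SE 0.19, edgeR adjusted p = 2.44e-43). Cd28, a costimulatory receptor that supports long-lived plasma cells, ran from 0 to 2.86 CPM (median 0) in GC B cells and from 133 to 301 CPM (median 213) in plasma cells (log2 fold change 7.66, SE 0.26, edgeR adjusted p = 4.37e-36). Cd28 is also a T cell gene, and Cd3e had 1 and 29 UMIs in the same libraries. Slpi, a secreted protease inhibitor, was at 90.8 ± 21.6 CPM in GC B cells and 10909 ± 2197 CPM in plasma cells (log2 fold change 6.87, SE 0.16). Mzb1, a chaperone of IgM and IgA assembly, was at 1392 ± 93.3 CPM in GC B cells and 17398 ± 1303 CPM in plasma cells (log2 fold change 3.64, SE 0.088). Cd93 was at 1.92 ± 1.29 CPM in GC B cells and 153 ± 56.8 CPM in plasma cells. Ly6c2 was at 19.5 ± 8.18 CPM in GC B cells and 3461 ± 945 CPM in plasma cells (log2 fold change 7.44, SE 0.11), and reads may be split uncertainly between Ly6c2 and its near copy Ly6c1 (3.84 ± 2.4 against 527 ± 147 CPM). Prg2, a granule protein also found in eosinophils, was at 13.4 ± 5.24 CPM in GC B cells and 385 ± 85.5 CPM in plasma cells (log2 fold change 4.82, SE 0.14).

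Receptors that place cells in the tissue went both ways. Of 14 tested trafficking and adhesion genes, 9 were higher, 4 lower and 1 (Itgb1) was not called (list median 1.41). The 4 lower genes act in GC confinement. S1pr2, a receptor that keeps B cells in the follicle center, ran from 450.2 to 630.4 CPM (median 506) in GC B cells and from 30.7 to 72.8 CPM (median 47) in plasma cells (log2 fold change -3.44, SE 0.12, edgeR adjusted p = 2.2e-35). Its signal partner Gna13 and Rgs13, which dampens chemokine signals, had log2 fold changes of -1.51 and -4.65. Cxcr5, the receptor for the follicle chemokine CXCL13, ran from 202 to 392 CPM (median 278) in GC B cells and from 3.45 to 21.6 CPM (median 10.1) in plasma cells (log2 fold change -4.42, SE 0.18, edgeR adjusted p = 4.19e-32). Among the higher genes, Ccr10, a homing receptor of mucosal plasma cells, ran from 0 to 2.86 CPM (median 0) in GC B cells and from 64.9 to 449 CPM (median 193) in plasma cells (log2 fold change 7.70, SE 0.27, edgeR adjusted p = 7.01e-35). Cxcr3, a receptor for interferon-induced chemokines, was at 7.87 ± 4.75 CPM in GC B cells and 304 ± 91.9 CPM in plasma cells (log2 fold change 5.20, SE 0.17). The integrin subunits Itgb7 and Itga4, which pair as the gut homing integrin, were at 3.94 ± 3.75 against 194 ± 84.7 CPM and 18.4 ± 9.51 against 202 ± 34.8 CPM. Ccr9, another mucosal homing receptor, was below the filter, with 0 UMIs in GC B cells and 46 in plasma cells, at least 34.8-fold higher against a floor of 3 UMIs over the group. Klf2, a factor that keeps lymphocytes mobile, and its target S1pr1, the receptor for exit to the blood, were also below the filter, with 25 against 138 and 32 against 55 UMIs (log2 fold changes 3.37 and 1.77 in a fit without the filter). The T cell values given above apply to Cxcr3, Klf2 and S1pr1, which T cells express as well.

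The GC program and the surface of B cells were lower with named exceptions. Of 20 GC genes 18 were lower and 2 higher (list median -2.69), and no gene of the list had overlapping groups. The list includes Fas, a gene of the sort. Gcsam, an adaptor that limits GC cell movement, ran from 331 to 438 CPM (median 401) in GC B cells and from 8.77 to 32.2 CPM (median 20.6) in plasma cells (log2 fold change -4.28, SE 0.15, edgeR adjusted p = 8.93e-35). Mybl1, a factor of proliferating GC cells, was at 122 ± 14.2 CPM in GC B cells and 6.46 ± 5.61 CPM in plasma cells (log2 fold change -4.15, SE 0.25) and Cd86, a costimulatory ligand, at 49.8 ± 17.1 CPM in GC B cells and 3.01 ± 2.98 CPM in plasma cells (log2 fold change -4.07, SE 0.37). The 2 higher members were Cd81, a tetraspanin, at 493 ± 76.6 CPM in GC B cells and 1644 ± 127 CPM in plasma cells (log2 fold change 1.75, SE 0.076, edgeR adjusted p = 3.36e-29), and Eaf2, an elongation cofactor and partner of Ell2, at 136 ± 22.8 CPM in GC B cells and 346 ± 36.1 CPM in plasma cells (log2 fold change 1.35, SE 0.093, edgeR adjusted p = 2.1e-20). Eaf2 overlaps Iqcb1 on the other strand, and whether counting used strand is not given in the sources used here. Of 15 tested B cell surface receptors, among them Ptprc of the sort, 10 were lower and 4 higher (list median -1.24). Cd22, an inhibitory receptor, was at 269.8 ± 65.2 CPM in GC B cells and 16.3 ± 7.95 CPM in plasma cells (log2 fold change -3.96, SE 0.17), Cd40, the receptor for T cell help, at 142 ± 26.1 CPM in GC B cells and 11.9 ± 9.8 CPM in plasma cells (log2 fold change -3.49, SE 0.23) and Ms4a1, which encodes CD20, at 1212 ± 179 CPM in GC B cells and 117 ± 29.3 CPM in plasma cells (log2 fold change -3.35, SE 0.10). The higher ones were Fcrla (1.56), Cd53 (1.15), Cd52 (1.03) and the inhibitory Fc receptor Fcgr2b (0.63). With totals of all UMIs, Cd53, Cd52, Fcgr2b and Eaf2 turned negative.

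Genes of B cell receptor signaling were in part lower and in part not called. Of 15 tested signaling genes 7 were lower, 1 was higher and 7 did not pass (list median -0.31). Among all tested genes 35.5% were lower, and 72.1% were called in either direction. The count depended on scaling: 14 were lower and 0 higher with totals outside immunoglobulin genes (median -0.73), and 15 and 0 with totals of all UMIs (median -1.70), while 11 were lower without the filter. The kinases Blk and Lyn were at 148 ± 34.1 against 33.6 ± 10.4 CPM (log2 fold change -2.13, SE 0.16) and 256.4 ± 50.4 against 80.9 ± 22.4 CPM (log2 fold change -1.66, SE 0.12), and the phosphatase Ptpn6 (SHP-1) at 657 ± 87.2 against 159 ± 30.4 CPM (log2 fold change -2.05, SE 0.091). The signal chains Cd79a and Cd79b, with Btk, Plcg2, Vav1 and Dapp1, were among those that did not pass, their log2 fold changes being -0.16, -0.13, 0.011, 0.16, -0.14 and -0.13. Blnk, the adaptor that links Syk to Btk, was the higher one, at 741 ± 52 CPM in GC B cells and 996 ± 111 CPM in plasma cells (log2 fold change 0.42, SE 0.069, edgeR adjusted p = 1.99e-07), and this turned to -0.97 with totals of all UMIs. Pik3ap1 (BCAP) was below the filter, with 34 UMIs against 0, at least 4.999-fold lower against the floor of 3 UMIs over the group.

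Of 13 tested genes of MHC class II presentation, 11 were lower, 1 was higher and 1 did not pass (list median -2.07). Ciita, the activator of all class II genes, ran from 60.2 to 128 CPM (median 106) in GC B cells and from 0 to 8.77 CPM (median 5.33) in plasma cells (log2 fold change -4.27, SE 0.26, edgeR adjusted p = 1.45e-22). H2-Oa, H2-DMb2 and H2-Aa were at 201 ± 23.3 against 13 ± 6.68 CPM, 765 ± 75.9 against 85.4 ± 20.3 CPM and 2882 ± 183 against 601 ± 105 CPM. H2-Ab1 was lower by a smaller step, at 5388 ± 417 against 2470.0 ± 356 CPM (log2 fold change -1.13). The invariant chain Cd74 was at 5672 ± 614 CPM in GC B cells and 5224 ± 431 CPM in plasma cells and did not pass (log2 fold change -0.11, SE 0.075, edgeR adjusted p = 0.166). Ctss, the protease that cleaves the invariant chain, was higher, at 343 ± 24.2 CPM in GC B cells and 1219 ± 135 CPM in plasma cells (log2 fold change 1.82, SE 0.071, edgeR adjusted p = 1.31e-32).

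Genes of cell division were lower in plasma cells without exception among those called. All 38 tested genes of DNA replication and nucleotide synthesis were lower (list median -2.18), as were 36 of 37 tested genes of mitosis (median -1.99), with Pttg1 at -0.09 not called. Uhrf1, which carries DNA methylation through replication, ran from 336 to 477 CPM (median 370.5) in GC B cells and from 28.2 to 58.7 CPM (median 35) in plasma cells (log2 fold change -3.39, SE 0.13, edgeR adjusted p = 2.64e-33). Mcm3, a subunit of the replicative helicase, ran from 144 to 190.3 CPM (median 176) in GC B cells and from 4.39 to 31.4 CPM (median 23.1) in plasma cells (log2 fold change -3.10, SE 0.18, edgeR adjusted p = 6.8e-24). Cenpf, a kinetochore protein, was at 77.8 ± 14.8 CPM in GC B cells and 7.75 ± 7.26 CPM in plasma cells (log2 fold change -3.19, SE 0.27) and the kinesin Kif20a at 139 ± 17.9 CPM in GC B cells and 16.3 ± 6.65 CPM in plasma cells (log2 fold change -3.04, SE 0.19). Top2a, the topoisomerase that separates chromosomes, ran from 388 to 541 CPM (median 455) in GC B cells and from 48.2 to 139 CPM (median 76.8) in plasma cells (log2 fold change -2.39, SE 0.12, edgeR adjusted p = 9.46e-26). Mki67 ran from 195 to 284 CPM (median 242) in GC B cells and from 70.2 to 226 CPM (median 91.4) in plasma cells (log2 fold change -1.14, SE 0.12, edgeR adjusted p = 4.74e-12), with overlapping groups.

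Plasma cells of the 2 sets of mice differed in these genes. Replication genes took 0.158 to 0.225% of the UMIs outside immunoglobulin genes in plasma cells of mice 5 to 8 and 0.26 to 0.321% in mice 13 to 16. Mitosis genes took 0.101 to 0.143% and 0.193 to 0.283%. In GC B cells the replication shares overlapped, at 1.19 to 1.36% and 1.24 to 1.37%, while mitosis genes took 0.748 to 0.799% and 0.875 to 0.918%. Fitted apart, mice 5 to 8 gave list medians of -2.55 (replication) and -2.49 (mitosis), and mice 13 to 16 gave -1.95 and -1.72. This split was described after the values were seen, it was not tested, and the labels give no other trait that separates these mice.

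**Figure D4:**
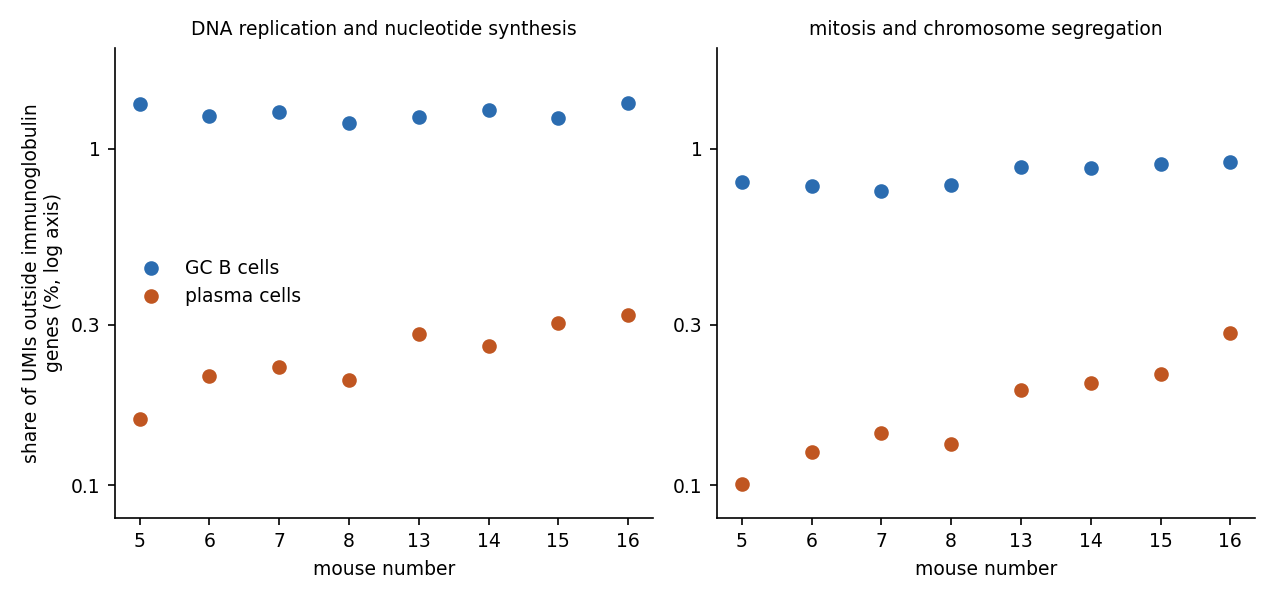
Summed UMIs of replication genes (left) and mitosis genes (right) as a percentage of UMIs outside immunoglobulin genes, on a log axis, for each of 8 mice; blue points are GC B cells and orange points plasma cells. Every plasma cell point lies below every GC B cell point, and plasma cells of mice 13 to 16 lie above those of mice 5 to 8.

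Promoters of 2 of these genes are shown for the elements of cell cycle control. E2F sites were searched as TTTGGCGC, TTTCCCGC or TTTCGCGC, and the cell cycle homology region (CHR) as TTTGAA, on both strands of the same 250 bases. E2F letters were found in 8 of 31 replication genes with a window (25.8%) against 4.13% of all tested genes with a window. CHR letters were found in 46.7% and CCAAT in 80.0% of the 30 mitosis genes with a window, against 12.3% and 41.7%. These shares were not particular to lists that were lower in plasma cells. CHR letters were in 45.5% of the 11 plasma cell surface and secretory genes with a window. CCAAT was in 85.0% of the 20 ER chaperone genes and 77.8% of the 9 MHC class II genes. The window of Mcm5 (chr8:75109259-75109508, plus strand) has its 2 overlapping E2F matches in capitals, and that of Top2a (chr11:99024190-99024439, minus strand) its CHR and CCAAT matches or their reverse complements:
Mcm5: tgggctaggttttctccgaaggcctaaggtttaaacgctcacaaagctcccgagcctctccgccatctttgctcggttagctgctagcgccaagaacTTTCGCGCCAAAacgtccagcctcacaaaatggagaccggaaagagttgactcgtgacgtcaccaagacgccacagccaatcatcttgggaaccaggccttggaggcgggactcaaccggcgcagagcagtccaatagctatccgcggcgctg
Top2a: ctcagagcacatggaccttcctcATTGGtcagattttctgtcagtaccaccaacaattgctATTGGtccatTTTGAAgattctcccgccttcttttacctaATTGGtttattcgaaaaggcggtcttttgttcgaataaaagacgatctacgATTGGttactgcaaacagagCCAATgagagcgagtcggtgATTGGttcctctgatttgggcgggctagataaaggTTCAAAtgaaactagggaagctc
Mcm5, a helicase subunit, ran from 627 to 741 CPM (median 688) in GC B cells and from 43.9 to 139 CPM (median 96.8) in plasma cells (log2 fold change -2.76).

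Regulators of the cell cycle did not all go the way of the machinery. Of 20 tested, 12 were lower, 6 higher and 2 did not pass (list median -1.17), and 10 more were below the filter. Cyclin D genes parted: Ccnd3, the cyclin of GC cells, was at 899 ± 100.2 CPM in GC B cells and 172 ± 23.8 CPM in plasma cells (log2 fold change -2.40, SE 0.087, edgeR adjusted p = 2.81e-34), and Ccnd2 at 29.3 ± 14.5 CPM in GC B cells and 562 ± 210.3 CPM in plasma cells (log2 fold change 4.21, SE 0.13, edgeR adjusted p = 7.01e-34). Cdk6, the partner of D cyclins, and E2f8 were lower, with log2 fold changes of -3.31 and -2.25. Btg2, an antiproliferative gene, was at 136 ± 24.7 CPM in GC B cells and 917 ± 170.5 CPM in plasma cells (log2 fold change 2.76, SE 0.086), while the related Btg1 was at 38.8 ± 8.68 CPM in GC B cells and 6.71 ± 4.72 CPM in plasma cells (log2 fold change -2.38, SE 0.33). Cdkn1b, the inhibitor p27, was below the filter with 22 UMIs against 100 (log2 fold change 3.16 in a fit without the filter, edgeR adjusted p = 1.23e-22). In the Myc network 4 of 6 tested genes were lower and 2 higher. Myc itself ran from 82.3 to 151 CPM (median 109) in GC B cells and from 14.3 to 55.6 CPM (median 29.1) in plasma cells (log2 fold change -1.82, SE 0.17, edgeR adjusted p = 2.68e-15), its partner Max was at 118 ± 19.7 against 44.3 ± 7.26 CPM (log2 fold change -1.43, SE 0.15), and Mxd3, a repressor of the S phase, at 88.5 ± 15.1 against 19.8 ± 13.6 CPM (log2 fold change -2.11, SE 0.21). Mxd4, a Myc antagonist of resting cells, was at 40.2 ± 8.96 CPM in GC B cells and 343 ± 42.6 CPM in plasma cells (log2 fold change 3.08, SE 0.12). Of 13 tested chromatin genes 7 were lower and 1 higher (list median -1.53). Ezh2, the methyltransferase of the GC, was at 103 ± 17.2 CPM in GC B cells and 21.8 ± 8.15 CPM in plasma cells (log2 fold change -2.23, SE 0.19), Hmgb2 at 1268 ± 65.3 against 153 ± 50.9 CPM (log2 fold change -3.03, SE 0.11), and the linker histone gene Hist1h1c was the higher one, at 20.8 ± 7.42 CPM in GC B cells and 143 ± 11.6 CPM in plasma cells (log2 fold change 2.79, SE 0.16).

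Ribosome production was lower on the scale of the typical gene. Of 26 tested nucleolar genes 21 were lower and 1 higher (list median -0.99). Npm1, the nucleolar chaperone, was at 1310.4 ± 216 CPM in GC B cells and 336 ± 43.1 CPM in plasma cells (log2 fold change -1.96, SE 0.08), and Gar1 and Nhp2, subunits of the pseudouridine machinery, had log2 fold changes of -2.55 and -1.79. Gnl3 was the higher one (1.24), overlaps Pbrm1 on the other strand and was at -0.14 with totals of all UMIs. Of 72 tested ribosomal proteins 52 were lower and 7 higher, by small steps (list median -0.42, the lowest -0.97). Rps20 was at 4262 ± 121 CPM in GC B cells and 2370.3 ± 222 CPM in plasma cells (log2 fold change -0.85, SE 0.068). Higher members included Rpl36al (3.11), Rps27l (1.23), Rpl10 (1.002) and Rpl41 (0.63), the last 3 of which were negative with totals of all UMIs. Ribosomal protein genes have many near-identical copies, so their counts are uncertain.

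Metabolic genes were divided by pathway. Of 11 tested glycolysis genes 8 were lower, none was higher and 3 did not pass (list median -0.88). A further 8 were below the filter. In a fit without the filter Hk2 (49 against 71 UMIs), Hk1 and Pfkm were higher (log2 fold changes 1.54, 0.97 and 1.72). Gapdh, Pgam1 and Slc16a3 were lower there (-1.97, -2.94 and -3.80), and Slc2a3 and Pgk1 did not pass. The 3 lower genes rest on few UMIs, 28 against 3, 70 against 4 and 75 against 2. The ratio of Gapdh was 4.12 (95% counting interval 1.27 to 21.2) and that of Slc16a3 16.5 (4.42 to 139). Ldha, the lactate dehydrogenase of fermenting cells, ran from 693 to 1148 CPM (median 874) in GC B cells and from 161 to 304 CPM (median 247) in plasma cells (log2 fold change -1.93, SE 0.092, edgeR adjusted p = 1.15e-25). Tpi1 and Eno1 were at 558 ± 101 against 158 ± 31.9 CPM and 201 ± 40.6 against 81.5 ± 12.5 CPM. Nuclear genes of the respiratory chain were higher for 34, lower for 10 and not called for 28 of 72 (list median 0.23), a direction that turned under other scalings (13 higher and 33 lower with totals outside immunoglobulin genes, 1 and 71 with totals of all UMIs). Ndufa1 was the member with the largest fold change, at 152 ± 17.2 CPM in GC B cells and 589 ± 80.1 CPM in plasma cells (log2 fold change 1.95, SE 0.088), and Cox7a2l, an assembly factor of supercomplexes, the lowest, at 504 ± 60.1 CPM in GC B cells and 248 ± 27.1 CPM in plasma cells (log2 fold change -1.02, SE 0.083). Of 8 tested mitochondrially encoded genes 3 were higher (mt-Co1, mt-Cytb and mt-Nd5, at 0.14, 0.19 and 0.47) and 2 lower (mt-Nd1 and mt-Nd2, at -0.49 and -0.25). The 3 higher ones turned negative with totals of all UMIs, and mt-Co1 passed no longer in 6 of the 8 fits that left out 1 mouse. The mitochondrial share of UMIs outside immunoglobulin genes was 2.53 ± 0.127% in GC B cells and 1.89 ± 0.212% in plasma cells (lower in 8 of 8 mice).

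Amino acid supply was higher for 12 of 17 tested genes and lower for 5 (list median 1.07, or -0.32 with totals of all UMIs; without the pairing by mouse, by DESeq2 or without mouse 6, 7, 13, 14 or 15 the lower genes numbered 4). Pycr1, which makes proline, ran from 5.31 to 15.8 CPM (median 11) in GC B cells and from 313 to 499.9 CPM (median 380.1) in plasma cells (log2 fold change 5.18, SE 0.14, edgeR adjusted p = 1.41e-40). Slc3a2, the heavy chain of amino acid carriers, was at 147 ± 18.4 CPM in GC B cells and 1566 ± 327 CPM in plasma cells (log2 fold change 3.39, SE 0.082). Chac1 and Ddit3 (CHOP), targets of ATF4, were at 7.1 ± 4.17 against 53 ± 10.6 CPM (log2 fold change 2.82, SE 0.27) and 10.1 ± 4.2 against 42.6 ± 8.58 CPM (log2 fold change 2.05, SE 0.26), and Ddit3 overlaps Mars on the other strand. The lower genes belonged to serine and one-carbon metabolism and to transport: Psat1 (log2 fold change -1.46), Mthfd2 (210.2 ± 16.7 against 106 ± 26.9 CPM), Shmt2 (-0.21), Slc7a1 (-0.75) and Slc38a1 (-0.48). Of 14 tested genes of autophagy and the lysosome 10 were higher and 2 lower (list median 1.17, or -0.22 with totals of all UMIs). The cathepsins Ctsb and Ctsd were at 106 ± 9.23 against 1280.1 ± 132 CPM (log2 fold change 3.60, SE 0.083) and 47.7 ± 7.06 against 483 ± 32.8 CPM (log2 fold change 3.33, SE 0.10), and Tfeb, a regulator of lysosome genes, was lower, at 49.5 ± 9.79 against 11.7 ± 6.4 CPM (log2 fold change -2.02, SE 0.26).

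Survival genes went both ways. Of 13 tested, 6 were higher, 5 lower and 2 not called (list median -0.038). With totals outside immunoglobulin genes 4 were higher and 7 lower, with totals of all UMIs 0 and 9, and by DESeq2 6 and 3. Mcl1, a survival factor of plasma cells, was at 140.3 ± 13.9 CPM in GC B cells and 349 ± 52 CPM in plasma cells (log2 fold change 1.31, SE 0.092, edgeR adjusted p = 4.28e-20). It stood at -0.0762 with totals of all UMIs. Bcl2l1, which encodes BCL-XL, ran from 8.76 to 24.8 CPM (median 15.4) in GC B cells and from 12.6 to 86.5 CPM (median 51.1) in plasma cells (log2 fold change 1.80, SE 0.24, edgeR adjusted p = 2.17e-09), with overlapping groups. Bcl2a1b, a survival gene induced by NF-kB, was at 43.2 ± 12.7 CPM in GC B cells and 8.3 ± 5.02 CPM in plasma cells (log2 fold change -2.41, SE 0.30), and reads of its near copies may be split uncertainly. The death genes Bid and Bak1 had log2 fold changes of -1.71 and -1.04. Bcl2 was below the filter, with 10 UMIs in GC B cells and 61 in plasma cells (log2 fold change 3.45 in a fit without the filter, edgeR adjusted p = 1.89e-15).

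The NF-kB pathway, to which the transgene belongs, was measured through 16 tested genes besides Rel, of which 8 were lower, 3 higher and 5 not called (list median -0.39). Among subunits, Nfkb1 was at 65.5 ± 9.7 CPM in GC B cells and 34.1 ± 15 CPM in plasma cells (log2 fold change -0.96, SE 0.19, edgeR adjusted p = 7.71e-06), Nfkb2 at 82.9 ± 19 CPM in GC B cells and 56.5 ± 11.9 CPM in plasma cells (log2 fold change -0.56, SE 0.16, edgeR adjusted p = 0.00124) and Relb at 60.4 ± 10.8 CPM in GC B cells and 37.6 ± 14.1 CPM in plasma cells (log2 fold change -0.67, SE 0.19, edgeR adjusted p = 0.00139). Rela was at 106 ± 12.8 CPM in GC B cells and 103 ± 14.8 CPM in plasma cells and was not called (log2 fold change -0.036, SE 0.13, edgeR adjusted p = 0.806). Inhibitors parted: Nfkbid and Nfkbie were lower, at 39.5 ± 5.87 against 7.56 ± 6.94 CPM (log2 fold change -2.27, SE 0.32) and 74.9 ± 13.8 against 33.1 ± 12.4 CPM (log2 fold change -1.20, SE 0.18), while Nfkbia (IκBα), an early NF-kB target, ran from 250.1 to 431 CPM (median 324) in GC B cells and from 315 to 868 CPM (median 592) in plasma cells (log2 fold change 0.82, SE 0.13, edgeR adjusted p = 2.45e-05) with overlapping groups. Chuk and Cyld, a kinase and a deubiquitinase of the pathway, were the other higher genes (1.22 and 1.01). All 3 higher genes were negative with totals of all UMIs. Of 15 tested interferon-induced genes 11 were higher and 3 lower (list median 0.71, or -0.68 with totals of all UMIs). Bst2 (tetherin, CD317), a known plasma cell antigen, was at 34.8 ± 9.36 CPM in GC B cells and 608 ± 103 CPM in plasma cells (log2 fold change 4.10, SE 0.11, edgeR adjusted p = 1.38e-40). Zbp1, Irgm1 and Igtp were at 55.5 ± 9.06 against 419 ± 69.6 CPM, 8.25 ± 5.24 against 69.3 ± 26.5 CPM and 49.2 ± 10.2 against 341 ± 95.4 CPM. The 3 lower genes were Ifi47 and the near copies Tgtp1 and Tgtp2, whose counts are uncertain, at -0.35, -0.49 and -0.53. Ifi47 passed no longer without mouse 5, 13 or 16, nor Tgtp1 without mouse 6, 13 or 14.

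Genes with the largest fold changes at 20 CPM or more on average, outside the groups above, included several membrane and secretory proteins. Ckap4, an anchor of the rough ER, ran from 0 to 7.01 CPM (median 1.38) in GC B cells and from 674 to 995 CPM (median 756) in plasma cells (log2 fold change 8.45, SE 0.18, edgeR adjusted p = 2.52e-44). Wipi1, an autophagy protein, had 3 UMIs in GC B cells and 372 in plasma cells, a ratio of 281 (95% counting interval 95.5 to 1370). Cpeb3 and Cish, the latter a brake on cytokine signals, had no UMI in GC B cells and 105 and 91 in plasma cells, at least 79.4-fold and 68.8-fold higher against a floor of 3 UMIs over the group. Cpeb3 overlaps March5 on the other strand. Tmem176b, Hid1 and Vsir (VISTA) were at 3.84 ± 1.94 against 747 ± 113 CPM, 2.01 ± 2.48 against 408 ± 46 CPM and 3.03 ± 2.18 against 451 ± 74.4 CPM. Tmem176b overlaps Tmem176a on the other strand. On the other side, Ackr4, a scavenger receptor for follicle border chemokines, had 268 UMIs in GC B cells and none in plasma cells, at least 39.4-fold lower. Gh had 268 UMIs against 2, a ratio of 59.1 (16.2 to 491), and the phosphatase gene Dusp10 222 against 3, a ratio of 32.6 (11.02 to 159). Dek, a chromatin protein, was at 517 ± 21 CPM in GC B cells and 19.5 ± 12 CPM in plasma cells (log2 fold change -4.68, SE 0.15). Cpne5, Rassf6, Emid1, Rgs2 and Cdca7 were at 144 ± 28.6 against 3.9 ± 4.59 CPM, 145 ± 11.4 against 4.46 ± 4.09 CPM, 83.5 ± 15.8 against 2.13 ± 2.45 CPM, 62.6 ± 15 against 1.81 ± 1.97 CPM and 69.4 ± 8.13 against 2.07 ± 3.63 CPM.

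The same contrast in the 8 control mice was used to ask where transgenic plasma cells departed from GC B cells by another amount. In a fit of all 32 libraries the contrast was called for 4746 of 7017 genes in controls (67.6%). Its signed log2 fold change differed between genotypes for 150 genes (2.14%, edgeR interaction). It was higher in transgenic mice for 49 (0.698%) and lower for 101 (1.44%), where a higher value can also be a smaller fall. Differences over 2-fold numbered 14 (0.200%) and 39 (0.556%). In mice 1 to 8 alone 24 genes passed and in mice 9 to 16 alone 73. None of the 12 plasma cell regulators and none of the 17 B cell and GC regulators tested in that fit was among them. Rel itself gave a difference of 2.32 that did not pass (edgeR adjusted p = 0.2269). Values below are on the scale of that fit. The NF-kB target Nfkbia went from 286 ± 43.5 to 1197 ± 260.5 CPM in controls and from 326 ± 50.2 to 586 ± 167 CPM in transgenic mice (difference of log2 fold changes -1.25, SE 0.14, edgeR adjusted p = 1.45e-06). Tnfaip3 (A20), another inhibitor that NF-kB induces, went from 20.2 ± 5.22 to 45.3 ± 24.2 CPM in controls and from 20.3 ± 5.97 to 12.4 ± 8.24 CPM in transgenic mice (-1.82, SE 0.43, edgeR adjusted p = 0.00697), a difference that passed neither by DESeq2 (adjusted p = 0.05525) nor in mice 1 to 8 alone (edgeR adjusted p = 0.4707). The serine protease inhibitor gene Serpina3g went from 22.5 ± 15.8 to 194 ± 78.2 CPM and from 30.2 ± 13.1 to 49.9 ± 16.8 CPM (-2.41, SE 0.28, edgeR adjusted p = 2.32e-08); its near copy Serpina3f gave -2.60, and reads may be split uncertainly between them. Plasma cell genes with a smaller step in transgenic mice were Prg2 (10.1 ± 8.4 to 1144 ± 319.5 CPM and 13.3 ± 5.23 to 381 ± 84 CPM; difference -1.96, SE 0.41, edgeR adjusted p = 0.00697), Pycr1 (2.41 ± 2.51 to 445 ± 44.1 CPM and 10.3 ± 3.5 to 382 ± 57 CPM; difference -2.21, SE 0.41, edgeR adjusted p = 0.000237), Slc3a2 (difference -0.82) and Ly6c2 (-0.74). The genotype means of Pycr1 lay further apart, in proportion, in GC B cells than in plasma cells. Ctss went from 366 ± 32.6 to 2495 ± 515 CPM and from 342 ± 23.6 to 1206 ± 131 CPM (difference -0.94, SE 0.11, edgeR adjusted p = 1.09e-07). Myc was lower in plasma cells by a larger step in transgenic mice, 62.3 ± 18 to 35 ± 19.6 CPM against 111 ± 27.3 to 31.1 ± 13.6 CPM (difference -1.03, SE 0.29, edgeR adjusted p = 0.04). Here too the genotype means lay further apart in GC B cells. The difference in Myc passed no longer in 10 of the 16 fits that left out 1 mouse, nor that in Ly6c2 in 7 of them, and neither passed by DESeq2. In mice 1 to 8 alone the differences in Pycr1 (edgeR adjusted p = 0.1112), Slc3a2 (edgeR adjusted p = 0.2476), Serpina3f, Ly6c2 and Myc did not pass. In mice 9 to 16 alone those in Ly6c2 and Myc did not pass.

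By list, the contrast differed between genotypes for 0 of 39 genes of DNA replication, 1 of 40 of mitosis, 4 of 16 of B cell receptor signaling and 9 of 74 ribosomal protein genes tested in that fit, beside 2.14% of all genes. It also differed for 5 of 17 plasma cell surface and secretory genes, 4 of 19 NF-kB genes, 2 of 7 of the Myc network and 2 of 11 of glycolysis. E2f2, a factor of the S phase, went from 157 ± 24.6 to 68.3 ± 17 CPM in controls and from 140.4 ± 24 to 145 ± 27.6 CPM in transgenic mice (difference 1.25, SE 0.18, edgeR adjusted p = 9.04e-07), so that the transgenic contrast alone was not called. Wdhd1, a replication fork adaptor, went from 61.8 ± 9.5 to 4.86 ± 3.74 CPM and from 62.7 ± 12.2 to 17.4 ± 8.42 CPM (difference 1.69, SE 0.49, edgeR adjusted p = 0.0425). Ncapg, a condensin subunit, and Tedc1, of the centriole, gave differences of 1.32 and 1.31. Wdhd1 and Ncapg each passed no longer in 10 of the 16 fits that left out 1 mouse, nor by DESeq2. Pld4, an endosomal nuclease, went from 141 ± 37.2 to 194 ± 88.9 CPM and from 84.2 ± 20.6 to 362 ± 94.6 CPM (difference 1.66, SE 0.31, edgeR adjusted p = 0.00791), and Mxd4, Btg2 and Rgs14 gave 0.91, 0.75 and 1.10. Btla and P2ry10 gave -1.75 and -1.79; T cells express them too, and the T cell marker sum of control plasma cells was 6.79 ± 0.3 against 5.79 ± 0.637 in transgenic ones. Its part in these differences was not tested. In mice 1 to 8 alone the differences in Wdhd1, Ncapg, Tedc1, Pld4, Mxd4, Btg2, Btla and P2ry10 did not pass. In mice 9 to 16 alone those in Wdhd1, Ncapg, Tedc1, Rgs14, Btla and P2ry10 did not pass. The switch to other isotypes also differed: switched isotypes went from 60.6 ± 4.86% to 57.7 ± 9.80% in controls and from 68.7 ± 4.53% to 85.9 ± 4.25% in transgenic mice (exact permutation of genotype over 12870 splits p = 0.000777, adjusted p = 0.003497 over 9 isotype measures). Jchain took 11.04 ± 1.71% of the UMIs outside immunoglobulin genes in control plasma cells and 7.80 ± 1.52% in transgenic ones (exact permutation adjusted p = 0.01849 over 17 library measures for the difference in contrast).

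**Figure D5:**
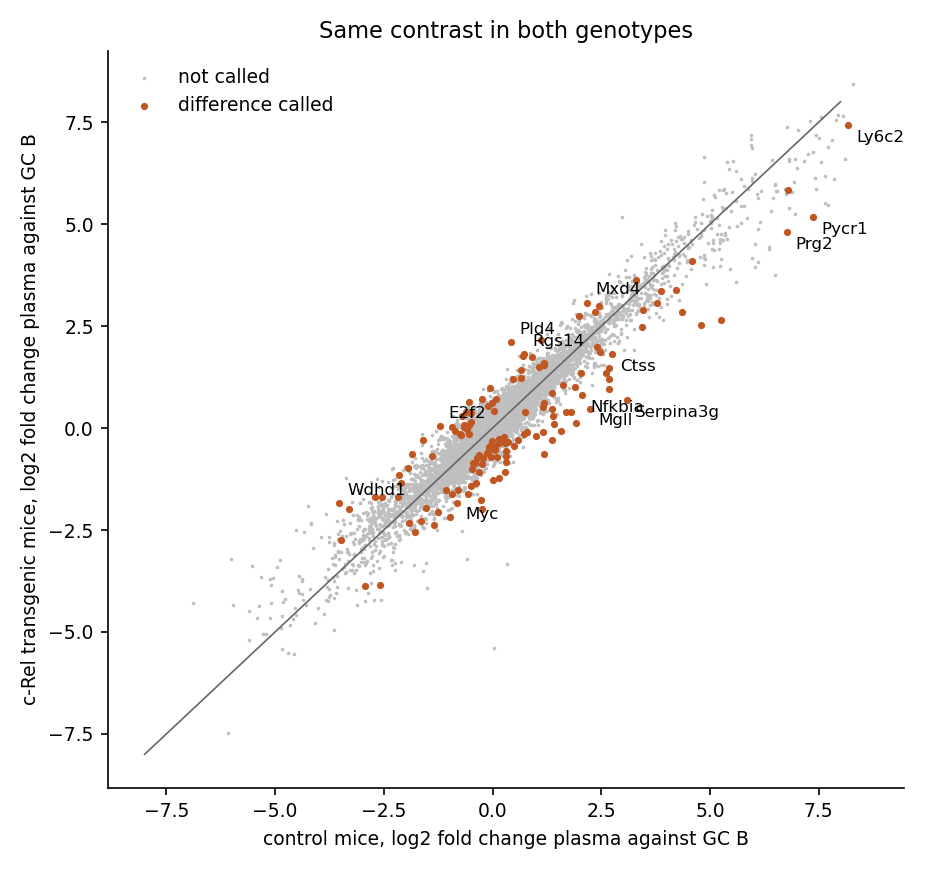
Log2 fold change, plasma cells against GC B cells, in 8 control mice (horizontal axis) and 8 c-Rel transgenic mice (vertical axis) for genes tested in the fit of 32 libraries, immunoglobulin genes left out. Orange points are genes whose contrast differed between genotypes (edgeR interaction), and the line marks equal values; Nfkbia, Mgll and Serpina3g lie below it and E2f2, Pld4 and Wdhd1 above it.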

How the data were processed

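The deposited table holds UMI counts of 20007 genes in 48 libraries of 1000 sorted cells, made by the authors by bulk SCRB-seq; the submitters' processing notes name STAR and GRCm38.p5. For the STAR version, annotation, strand setting and UMI collapsing, the sources used here give nothing. Symbols and coordinates came from GENCODE M21 (19701 genes; the 306 without a symbol held 0.424% of UMIs). Magnetic enrichment differed between the populations and cannot be told apart from them. Both genotypes carried 1 further allele, which, like a few genes, is not reported here.

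The deposited counts were tested with edgeR 4.0.16 (R 4.3.3, quasi-likelihood, robust), with mouse as a block, filterByExpr, and library sizes and TMM factors from genes outside 226 immunoglobulin genes; Benjamini-Hochberg adjusted p under 0.05 was called. Pairing by mouse came from the labels. Deviations of the GC B cell and plasma cell libraries of a mouse from their group means correlated at -0.00414 to 0.131 over 3725 genes, and 5 of 8 mice correlated best with themselves. Shares were compared by exact two-sided sign flips, and genotypes by exact permutation. In simulated counts for plasma cells against GC B cells (6207 genes), 93.8% of changes of 1 on the log2 scale and 9.09% of changes of 0.5 were called, with 4 of 6011 unchanged genes called. For the genotype difference (7037 genes), 30.6% of changes of 1 and 88.5% of changes of 2 were called. Both simulations changed few genes and used a set spread between libraries, not one estimated from the data. In the simulation of plasma cells against GC B cells the populations were otherwise alike. These rates are thus not those of the real libraries, and they do not measure errors from scaling.

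Members and lists were chosen with earlier results of these data known. Named genes were Rel, all tested regulators, up to 12 genes per direction with the largest change at a mean of 20 CPM or more and 1 direction in 8 pairs, up to 4 per direction of each other list, and up to 10 per direction of the genotype difference; immunoglobulin constant genes are given as shares. Other genes, and those below the filter, were named after their values were seen. Alternatives were DESeq2 1.42.0, other scalings, no filter, thinned counts, no block, all 32 libraries, mice 5 to 8 or 13 to 16 alone, and leaving out each mouse. The exact tests of Rel and Pax5 and the values by mouse of division genes were added after seeing the data. Ratios of few UMIs carry exact intervals, and these and the floor of 3 UMIs over the group (0.587 CPM in GC B cells, 1.33 in plasma cells) cover counting error only.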

Additional observations from a re-analysis of the deposited data

Results flagged for a closer look

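Of 257 groups of 8 values checked, 12 held a mouse far from the others, beyond Dixon's 95% critical value, and chance gives about 1 in 20 groups. The T cell marker sum of GC B cells was 0 in mouse 6 and 1.51 to 2.65 in the other mice (log2(CPM + 1) scale). The other 11 were log2 differences between plasma cells and GC B cells of a single mouse, on log2(CPM + 1). Mouse 5 stood out in Prg2 (6.57, the other mice 4.23 to 4.89), Srprb (4.91, the others 3.67 to 4.19) and Mgll (1.69, the others -0.11 to 0.71). Without mouse 5 Mgll passed no longer (log2 fold change 0.30, edgeR adjusted p = 0.138). Mouse 7 stood out in Spi1 (-5.26, the others -2.26 to -0.18) and Tfeb (-5.50, the others -2.58 to -0.98). Its plasma cell library held 0 CPM of both genes, so the size of these differences depends on the added 1. The remaining values were Arfgap3 at 5.57 in mouse 13 (3.77 to 4.52), Ciita at -6.87 in mouse 16 (-4.60 to -3.46), Foxo1 at -1.30 in mouse 8 (-0.61 to -0.048), Rpl41 at 1.10 in mouse 14 (0.40 to 0.62), Sel1l at 4.50 in mouse 15 (3.56 to 3.99) and Vsir at 8.76 in mouse 6 (6.14 to 7.27). Ciita in plasma cells of mouse 16 and Vsir in GC B cells of mouse 6 were likewise at 0 CPM.

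The contrast of plasma cells with GC B cells differed between genotypes for 33 of the named genes given here and 7 library measures. Higher signed values in transgenic mice, as differences of log2 fold changes from the edgeR interaction, were found for Wdhd1 (1.69), Pld4 (1.66), Ncapg (1.32), Tedc1 (1.31), E2f2 (1.25), Pitpnc1 (1.21), Fgd2 (1.17), Rgs14 (1.10), Tnrc6b (1.06), Srpk2 (1.05), Mxd4 (0.91), Btg2 (0.75), Fcgr2b (0.63), Fcrla (0.38) and Blnk (0.38). Lower signed values were found for Serpina3f (-2.60), Serpina3g (-2.41), Pycr1 (-2.21), Prg2 (-1.96), Tnfaip3 (-1.82), P2ry10 (-1.79), Mgll (-1.77), Btla (-1.75), Lgals9 (-1.73), Nfkbia (-1.25), Myc (-1.03), Ctss (-0.94), Lamp1 (-0.89), Slc3a2 (-0.82), Ptpn6 (-0.81), Ly6c2 (-0.74), Npm1 (-0.43) and Rps20 (-0.41). Srpk2 overlaps Kmt2e on the other strand. Of the 16 fits that left out 1 mouse, 11 ended the call of Fcrla, 5 that of Srpk2, 4 each those of Blnk and Npm1 and 2 that of Fcgr2b. In mice 1 to 8 alone only Ctss, E2f2, Nfkbia, Prg2, Ptpn6, Serpina3g, Rgs14 and Tnrc6b of these genes passed. Of those, Rgs14 and Tnrc6b did not pass in mice 9 to 16 alone. Among library measures, the exact permutation adjusted p of the difference was 0.01849 for the Jchain share, 0.02378 for the sum of plasma cell markers, 0.003497 for both the Ighm share and the switched share, and 0.02378 for the shares of Ighg1, Ighg3 and Ighe.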

How the results depend on the processing

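The number of genes called between plasma cells and GC B cells was 4457 and lay within 1.5 times of that under DESeq2 (4029), TMM on all UMIs (4477), all 32 libraries in 1 fit (5025), thinned counts (3377 of 4659 tested) and mice 5 to 8 (3853) or 13 to 16 (4034) alone. Without the filter it was 6778 of 18190 genes tested, as more genes were tested. Leaving out 1 mouse gave 4317 to 4514 genes, a difference in immunoglobulin share of 47.9 to 48.8 percentage points and a difference in switched share of 16.4 to 18.7 points. Without the pairing by mouse (no replicate block) 4457 genes were called, 4423 of them shared with the blocked fit, and 107 differed between genotypes, 105 shared. Among genes of the naming rule that are given here it ended the call of Serpina3f, Myc, Ly6c2, Npm1, Fcrla, Fcgr2b and Blnk between genotypes, of Tgtp1 and Tgtp2, and of total UMIs. The genotype difference was called for 90 genes by DESeq2, 24 in mice 1 to 8 alone, 73 in mice 9 to 16 alone and 108 to 173 without 1 mouse; the last 3 settings use fewer samples, and the cause of the DESeq2 count was not tested. By DESeq2 the genotype differences of Tnfaip3, Myc, Wdhd1, Ncapg, Ly6c2, Npm1, Srpk2, Fcrla, Fcgr2b and Blnk passed no longer.

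Scaling decided the sign of small changes. With totals of all UMIs and no TMM factors, log2 fold changes turned to -0.24 for Atf4, -0.97 for Blnk, -0.0744 for Ccng1, -0.36 for Cd52, -0.23 for Cd53, -0.11 for Cdc25a, -0.15 for Chuk, -0.38 for Cyld, -1.33 for E2f2, -0.0348 for Eaf2, -1.22 for Ebf1, -0.76 for Fcgr2b, -0.74 for Fgd2, -0.14 for Gnl3, -0.43 for Lgals9, -0.0762 for Mcl1, -0.90 for Mgll, -0.25 for Ndufv3, -0.57 for Nfkbia, -0.39 for Rpl10, -0.76 for Rpl41, -0.15 for Rps27l, -0.29 for Sdhc, -0.69 for Serpina3g, -0.25 for Uqcrq, -1.06 for Zbtb20, -1.25 for mt-Co1, -1.20 for mt-Cytb and -0.92 for mt-Nd5. With totals outside immunoglobulin genes they turned to -0.36 for E2f2, -0.0913 for Zbtb20, -0.28 for mt-Co1 and -0.23 for mt-Cytb, and without the filter to -0.0182 for mt-Co1. The thinnest plasma cell library held 265770 UMIs outside immunoglobulin genes, and 1 to 3 UMIs in a group, as for Wipi1 or Gh, leave wide intervals.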
